A study of Homo sapiens with 66 samples.

Results

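The MYC/MAX/MXD network was followed through 11 human acute myeloid leukaemia (AML) cell lines, before and after 24 h of etoposide, a poison of topoisomerase II that leaves breaks in DNA. Its members were chosen by gene symbol and number 10 of the 57992 gene identifiers analysed, namely MYC, MYCN, MYCL, MAX, MXD1, MXD3, MXD4, MXI1, MNT and MGA. RNA was sequenced from 66 libraries, 3 biological replicates of untreated cells (medium as vehicle) and 3 of cells given etoposide at the IC50 of that cell line, its own median inhibitory concentration. The lines were THP-1, NB-4, F-36P, OCI-AML3, HL-60, MV-4-11, KASUMI-1, OCI-AML2, MOLM-13, NOMO-1 and MONO-MAC-6, written without hyphens in the sample labels. The culture medium differed between lines but not between the groups of a line, with granulocyte-macrophage colony stimulating factor in that of F-36P and human insulin in that of MONO-MAC-6, so differences between lines include those of medium. No genetic change was made, and each comparison sets a line given etoposide against the same line untreated, and the concentration differed between lines. Each line is 1 established culture, and every library held RNA pooled from 3 wells.

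The network is built around MAX, a small basic helix-loop-helix leucine zipper protein that binds the E-box motif CACGTG as a dimer. Paired with MYC, MYCN or MYCL, MAX recruits coactivators and raises transcription of genes for ribosome making, nucleotide synthesis and growth. Paired with MXD1, MXD3, MXD4, MXI1 or MNT, it recruits SIN3 and histone deacetylases and represses many of the same genes, while MGA carries MAX into a polycomb complex. In blood cells MYC is high in dividing progenitors, and MXD1 is known to come on as they mature.

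In GRCh38, MYC spans chr8:127735434-127742951, MYCN chr2:15940550-15947007, MYCL chr1:39895428-39902256, MAX chr14:65006174-65102695, MXD1 chr2:69897688-69942945, MXD3 chr5:177301461-177312757, MXD4 chr4:2247432-2262109, MXI1 chr10:110207605-110287365, MNT chr17:2384073-2401104 and MGA chr15:41621134-41773081, and the counts are over all their exons.

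Libraries held 17997404 to 24101670 reads on genes (median 20241014), and no pair of replicates agreed within sampling noise, with a lowest chi-square per degree of freedom of 2.12 over 66 pairs. The etoposide libraries of OCI-AML2 were set aside in the study for poor raw read quality. In that line 0.0221% of 13604 genes rose, 0% fell, and 3.35% had an unadjusted p under 0.05 in edgeR, so OCI-AML2 is given apart and counts below cover the other 10 lines. CDKN1A, the p53-driven cell cycle inhibitor, rose in all 10 of them, by 1.86 (MV-4-11) to 5.46 (OCI-AML3) on the log2 scale. MDM2, taken as a check as well, rose in 5 of them and fell in NB-4 (-0.33). It did not pass a false discovery rate of 0.05 in F-36P, HL-60, KASUMI-1 or THP-1. In OCI-AML2 both genes passed, with rises of 0.73 for CDKN1A and 0.47 for MDM2. CD33 and SPI1, which mark the myeloid lineage, were at 66.5 to 147 and 107 to 203 CPM (read counts scaled to equal library size) in all 11 untreated lines. Of the other listed myeloid markers, PTPRC ran from 32.5 CPM (KASUMI-1) to 539.6 (OCI-AML2) and CEBPA from 0.552 (F-36P) to 575 (THP-1). MPO, a myeloid enzyme gene, ran from 0.977 CPM (F-36P) to 27167 (KASUMI-1). It was also low in OCI-AML3 (2.99), MV-4-11 (9.40) and THP-1 (9.96). F-36P stood apart by the fetal globin gene HBG2, at 5417 CPM, so it carried an erythroid marker as well as myeloid ones. Lymphoid and fibroblast markers did not pass 6.68 CPM in any untreated line. Of the epithelial ones EPCAM reached 81.9 CPM in KASUMI-1, KRT18 43.8 and KRT8 21.6 in NOMO-1, and CDH1 26.6 in F-36P.

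The E-box was looked for, on both strands since CACGTG reads the same on each, in the 250 bases before each annotated start (RefSeq, GRCh38.p14). It lay in 6.34% of 35116 such windows of all genes. Of 14 windows for 9 members, 2 held it, those of MXD4 and MNT, and no window was used for MYC. Of 48 windows for 37 of the MYC target genes described further on, 12 held it (25%). The windows of HSPD1 and HSPE1 overlap and held the same site, which is thus counted for both. The matches of MXD4 and MNT are shown because these are the member windows that held the motif, and those of UTP20, LDHA and PRMT3 because these targets fell in all 10 lines. The E-box is in capitals and each match is read 5′ to 3′ on the strand of its gene. The LDHA window held another E-box, 87 bases before the start, that is not shown.
MXD4 (chr4:2262330-2262359, minus strand, E-box 238 bases before the start): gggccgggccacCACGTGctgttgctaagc
MNT (chr17:2401236-2401265, minus strand, 193 bases before): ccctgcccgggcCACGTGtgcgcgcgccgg
UTP20 (chr12:101280083-101280104, plus strand, 10 bases before): cttttttccgtcCACGTGaccc
LDHA (chr11:18394366-18394395, plus strand, 185 bases before): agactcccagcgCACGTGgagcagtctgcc
PRMT3 (chr11:20387517-20387546, plus strand, 187 bases before): ccgcccccacctCACGTGacccgcacggcg

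Before treatment MYC was the most abundant member in every line. On a scale that corrects for gene length, the CPM per kilobase of exon (RPKM), its level ran from 25.4 in THP-1 to 160.0 in HL-60, with a median line at 88.3. Those of its partner MAX ran from 9.59 (HL-60) to 26.6 (NB-4). The repressive partners were lower than MYC, with ranges of 1.38 to 12.1 RPKM for MXD1, 1.28 to 6.48 for MXD3, 2.16 to 11.8 for MXD4, 4.10 to 15.8 for MXI1 and 1.93 to 4.74 for MNT, and MGA ran from 3.74 to 10.5.

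**Figure D1:**
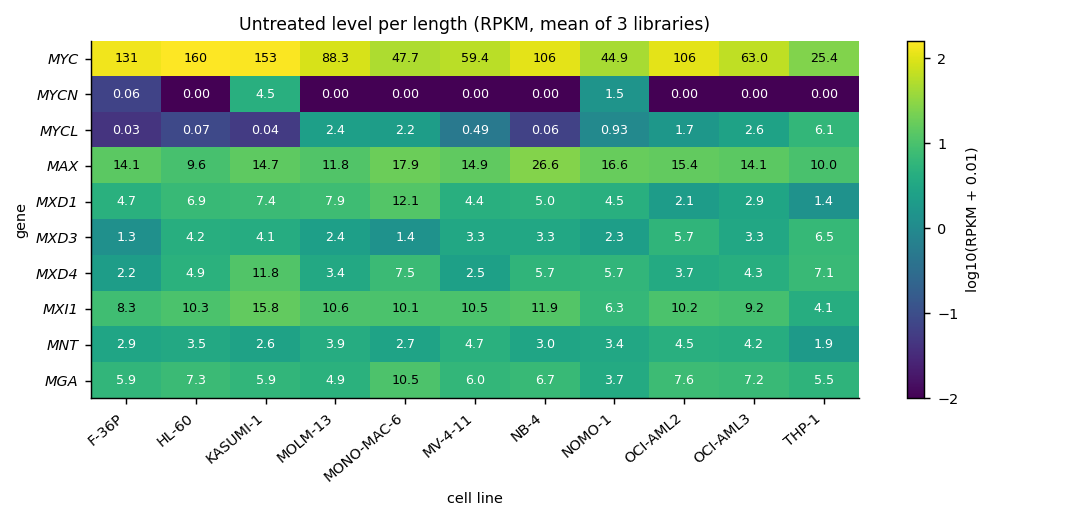
Level of the 10 members in each untreated cell line, as RPKM (mean of 3 libraries, printed in each cell), with colour on a log10 scale after adding 0.01. The MYC row is the brightest in every column, from 25.4 in THP-1 to 160.0 in HL-60, while MYCN is at 0 in 8 lines.

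All 10 members differed between untreated lines by the F test of edgeR's quasi-likelihood fit at a false discovery rate (FDR) under 0.05, as 99.4% of 18130 genes did, so that count sets the members apart from nothing. Over the 55 pairs of lines, 66.8% of all gene contrasts passed, against 51 of 55 pairs for MYC (92.7%), 50 for MXD4 (90.9%), 47 each for MYCL and MXD1 (85.5%), 42 for MXD3 (76.4%), 41 each for MAX and MNT (74.5%), 36 for MXI1 (65.5%), 32 for MGA (58.2%) and 27 for MYCN (49.1%). MYC, MXD4, MXD1 and MYCL thus separated the lines most often, and by the fold between the highest and the lowest line MNT (2.45), MAX (2.78) and MGA (2.81) ranged least. For MYCN, pairs between lines without a read of it could not pass, so its share cannot be ranked with the others.

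Scaled over the 33 untreated libraries, MYC was highest in HL-60 (977 CPM ± 68.7, SD, n = 3) and KASUMI-1 (935 ± 45.6), which did not differ from each other. F-36P followed at 800.1 CPM ± 90.6, and NB-4 (649.5 ± 56.9) and OCI-AML2 (646 ± 8.50) were again a pair that did not differ. MOLM-13 lay in the middle at 539.6 CPM ± 46.4. Below it came OCI-AML3 (385 ± 17.1) with MV-4-11 (363 ± 0.851), then MONO-MAC-6 (292 ± 9.21) with NOMO-1 (274 ± 7.20), and neither of these pairs differed. THP-1 was lowest at 155 CPM ± 9.08, below NOMO-1 by more than the spread of the libraries.

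MYCN, the paralogue best known from neuroblastoma, was read in 2 untreated lines only in more than traces. KASUMI-1 had 12.4 CPM ± 1.42 and NOMO-1 had 4.06 ± 0.254, and the step between them passed the test. F-36P held 9 reads over 3 libraries (0.164 CPM ± 0.114). The other 8 lines had 0 reads in every untreated and treated library, which allows a level of up to 0.0523 CPM over the 3 libraries of the shallowest group among them (HL-60, etoposide). This limit, 3 counts, covers counting error only.

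MYCL ran nearly opposite to MYC. THP-1, the line with least MYC, had most MYCL at 30.2 CPM ± 0.607. OCI-AML3 (12.99 ± 0.769), MOLM-13 (11.8 ± 0.700) and MONO-MAC-6 (10.96 ± 0.262) followed without passing the test between neighbours, then OCI-AML2 (8.26 ± 0.791), NOMO-1 (4.60 ± 0.234) and MV-4-11 (2.45 ± 0.804). HL-60, NB-4, KASUMI-1 and F-36P, 4 of the 5 lines highest in MYC, were at 0.365 down to 0.161 CPM, and no neighbours among these 4 differed. Over the 11 lines the Pearson r between the mean log2 CPM of MYC and MYCL was -0.78, a description with no test.

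Among the antagonists the order changed from gene to gene. MXD1 was highest in MONO-MAC-6 (76.6 CPM ± 0.448) and lowest in THP-1 (8.74 ± 1.06), and THP-1, OCI-AML2 (13.5) and OCI-AML3 (18.5) each differed from the next line. MXD3, by contrast, was highest in THP-1 (30.7 CPM ± 5.43) and OCI-AML2 (27.0 ± 2.21), which did not differ, and lowest in F-36P (6.07 ± 1.71) and MONO-MAC-6 (6.53 ± 2.32), which did not differ either. Across the 11 untreated lines MXD1 and MXD3 had an r of -0.65. MXD3 shares 926 exon bases on the same strand with RAB24 and MXD1 shares 237 with SNRNP27, so reads in those stretches could not be given to 1 gene. On the other strand MXD3 shares 1148 with PRELID1 and MNT 1065 with an unnamed gene, which matters only if strand was not used in counting.

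MXD4 and MXI1 were both highest in KASUMI-1, at 80.8 CPM ± 8.90 and 93.2 ± 5.63, each above the next line. F-36P (14.9 ± 1.56) and MV-4-11 (16.9 ± 0.868) held least MXD4, and THP-1 held least MXI1 (24.2 ± 0.580). For MXI1 the 8 lines from NB-4 (70.6 CPM) down to F-36P (49.1 CPM) formed a run in which no neighbours differed. MXI1 was the antagonist that followed MYC most closely over untreated lines (r = 0.76, n = 11).

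MAX was highest in NB-4 (167 CPM ± 3.54), above MONO-MAC-6 (112 ± 2.65), and lowest in THP-1 (62.5 ± 1.73) and HL-60 (59.99 ± 3.58). HL-60 therefore paired the highest MYC with the lowest MAX. MNT ranged from 16.8 CPM ± 1.89 in THP-1 to 41.2 ± 1.35 in MV-4-11, and of its 10 neighbouring pairs only the last, KASUMI-1 and THP-1, passed the test. MGA was highest in MONO-MAC-6 (211 CPM ± 10.2) and lowest in NOMO-1 (75.1 ± 7.37), both apart from their neighbours.

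With etoposide MYC fell and MXD1 rose in every one of the 10 lines, and the other members moved in some lines only or in both directions. Over the 92 tests of a member in a line, 32 rose, 27 fell and 33 did not pass (edgeR quasi-likelihood test, FDR under 0.05 over all genes of the line). MXD4 rose in 7 lines and MYCL in 6, whereas MGA fell in 6 and rose in none. In bulk RNA, fewer cells with a transcript and less of it per cell cannot be told apart.

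These counts stand against large shares of all genes. In F-36P 35% of all genes tested rose and 25% fell, in HL-60 17.5% and 15%, in KASUMI-1 31.5% and 28.6%, in MOLM-13 28.1% and 28.1%, and in MONO-MAC-6 31.8% and 30.5%. The same shares were 33.5% and 30.4% in MV-4-11, 31% and 28.7% in NB-4, 28.8% and 23.9% in NOMO-1, 22.4% and 17.7% in OCI-AML3, and 16.1% and 16% in THP-1. Of the members tested, 4 rose and 1 fell of 9 in F-36P, 1 and 2 of 9 in HL-60, 4 and 4 of 10 in KASUMI-1, 2 and 2 of 9 in MOLM-13, and 3 and 4 of 9 in MONO-MAC-6. In MV-4-11 they were 4 and 2 of 9, in NB-4 4 and 5 of 9, in NOMO-1 4 and 1 of 10, in OCI-AML3 2 and 3 of 9, and in THP-1 4 and 3 of 9. NB-4 was the line in which every member tested passed.

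MYC fell most in F-36P, where untreated libraries read 910.2, 833 and 792 CPM and treated ones 50.2, 65.5 and 72.3 CPM. In MONO-MAC-6 the untreated libraries were at 292, 311 and 306 CPM and the treated at 44.9, 50.8 and 47.4. KASUMI-1 fell by 2.20 on the log2 scale (SE 0.090, FDR 2.46e-07), from a mean of 934 to 203 CPM. In these 3 lines the treated libraries lay far below all untreated ones, and the log2 fold changes of the first pair were -3.75 (SE 0.15, FDR 5.16e-07) and -2.67 (SE 0.056, FDR 2.85e-11). NB-4 (-2.01), MV-4-11 (-1.76) and NOMO-1 (-1.68) also fell by more than 2-fold.

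The smallest falls were in HL-60, MOLM-13, OCI-AML3 and THP-1. HL-60 had 985, 1126 and 1033 CPM untreated and 689, 799 and 647 CPM with etoposide, a log2 fold change of -0.56 (SE 0.095, FDR 0.00071). In MOLM-13, 560.3, 524 and 471 CPM became 313, 356 and 327 (-0.64, SE 0.080, FDR 8.73e-05). The libraries did not overlap in either line, nor in OCI-AML3 (-0.82) or THP-1 (-0.98). Averaged over the 10 lines MYC fell by 1.68 (SE 0.037, FDR 1.27e-39), and 24.1% of 19974 genes fell and 31.7% rose on that average. The SE and FDR of this and later averages measure the spread of cultures within lines, not the spread between lines. The size of the fall differed between lines (FDR 6.95e-24), a test that 74.5% of genes passed. F-36P, MONO-MAC-6 and KASUMI-1, with the largest falls, were also given the highest etoposide concentrations. Line and concentration cannot be told apart here. HL-60 ended at 712 CPM of MYC and MONO-MAC-6 at 47.7 CPM, each scaled within its own line, so the treated means spanned a wider range of folds than the untreated ones.

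**Figure D2:**
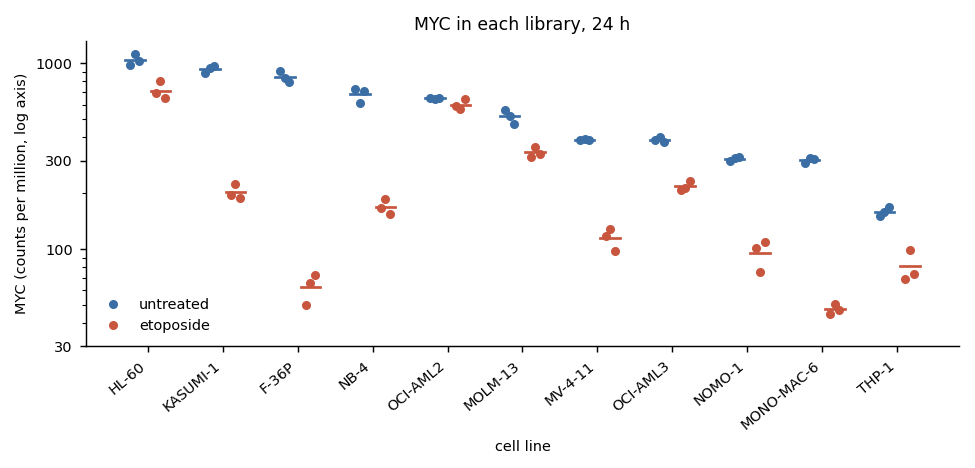
MYC in each library, in CPM scaled within the 6 libraries of a line (log axis), with lines as group means and cell lines ordered by the untreated mean. Treated points lie below every untreated point of their line in 10 lines, and in OCI-AML2 the groups overlap.

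In OCI-AML2, MYC read 653, 639.7 and 648 CPM untreated and 586, 566 and 642 CPM treated (log2 fold change -0.11, SE 0.049, FDR 0.998). None of its 9 members tested passed, and their log2 fold changes ran from -0.11 (MYC) to 0.19 (MXD1).

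MYCN fell in 1 of the 2 lines that expressed it. In KASUMI-1 it read 10.9, 12.6 and 13.6 CPM untreated and 5.20, 5.91 and 6.35 treated, a fall of 1.09 on the log2 scale (SE 0.13, FDR 8.84e-05). In NOMO-1, 4.27, 4.81 and 4.54 CPM stood against 3.48, 3.79 and 3.39. Those groups did not overlap but the difference did not pass (-0.35, SE 0.15, FDR 0.0666).

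MYCL went the other way from MYC in 6 lines. In F-36P it was at 0.282, 0 and 0.223 CPM untreated and at 1.89, 1.92 and 2.32 CPM treated, a rise of 3.54 (SE 0.46, FDR 0.000109) that rests on 9 reads before treatment. NB-4 (2.37) and KASUMI-1 (1.85) rose from similarly low levels of 17 and 12 reads. In F-36P, NB-4 and KASUMI-1 the untreated libraries lay below the minimum count of 10, so MYCL was tested there through its treated libraries. Only a rise could be called in those lines. In THP-1, the line with most MYCL, 30.7, 31.9 and 30.6 CPM became 48.8, 58.0 and 47.7 (0.73, SE 0.13, FDR 0.000346). All treated THP-1 libraries lay above all untreated ones.

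MV-4-11 (0.96) rose too, and MONO-MAC-6 rose by 0.22 (FDR 0.0372), a call lost without any of 5 single libraries (FDR 0.059 without untreated replicate 1, 0.114 and 0.0763 without the others, 0.0773 and 0.137 without etoposide replicates 2 and 3). MYCL did not pass in HL-60 (0.94, FDR 0.0822), MOLM-13 (-0.19), NOMO-1 (-0.36, FDR 0.0907) or OCI-AML3 (-0.35, FDR 0.051). Without etoposide replicate 2 the NOMO-1 value was -0.54 (FDR 0.0206), and without replicate 3 that of OCI-AML3 was -0.49 (FDR 0.00246). The average rise of MYCL over 10 lines was 1.00 (SE 0.081), and it differed between lines (FDR 1.44e-14). That average includes F-36P, NB-4 and KASUMI-1.

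MAX, the shared partner, hardly moved. Its average log2 fold change was 0.035 (FDR 0.259), which passed with libraries scaled by their size alone (0.12, FDR 2.92e-05) or by RLE size factors (0.064, FDR 0.0342), with values from -0.26 in NB-4 to 0.38 in THP-1, and these differed between lines (FDR 0.000107). It fell in NB-4, from a mean of 175 CPM ± 4.69 to 147 ± 1.23 (FDR 0.0107, and 0.0521 without etoposide replicate 3), and in MONO-MAC-6 (-0.18, FDR 0.00688), but neither passed when libraries were scaled by their size alone (FDR 0.587 and 0.261). It rose in THP-1 (FDR 0.0291), a call lost without untreated replicate 1, 2 or 3 (FDR 0.0962, 0.0854 and 0.0706).

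MXD1, the antagonist tied to maturation, rose in all 10 lines, by 1.05 on average (SE 0.031), and in 4 lines by more than 2-fold. THP-1, which had least MXD1, rose most, from 7.81, 9.22 and 9.91 CPM to 39.98, 37.2 and 39.1 (2.11, SE 0.14, FDR 5.32e-09). KASUMI-1 rose least, from 47.4, 44.8 and 47.8 CPM to 67.5, 56.5 and 59.2 (0.39, SE 0.093, FDR 0.00495). Treated and untreated libraries did not overlap in any of the 10 lines. Between these lay F-36P (0.80), MOLM-13 (0.85), MONO-MAC-6 (0.86), MV-4-11 (0.92), NB-4 (0.97), OCI-AML3 (1.06), HL-60 (1.09) and NOMO-1 (1.22), and the sizes differed between lines (FDR 3.72e-12). MONO-MAC-6 held most MXD1 after treatment, 146, 145 and 142 CPM.

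Markers of monocytes were mostly higher with etoposide, not all in 1 direction. Of the 5 listed, CD14, FCGR1A, LYZ, CSF1R and ITGAM, 44 tests in the 10 lines gave 32 rises and 6 falls, and ITGAM, an integrin of mature myeloid cells, rose in 10 of 10 by 0.59 (NOMO-1) to 5.24 (KASUMI-1). LYZ rose in 8 lines and fell in 2, CSF1R rose in 8 of the 9 in which it was tested, and CD14 in 4 of 5. FCGR1A, an Fc receptor gene, fell in 4 lines and rose in 2. The summed level of the 5 was higher in every treated library in 8 lines, for example 669 to 738 CPM untreated and 1154 to 1264 CPM treated in THP-1. It was lower in MONO-MAC-6 (4111 to 4477 against 3412 to 3809 CPM) and overlapped in NOMO-1 (749 to 798 against 614 to 818). The mean of CD14 stayed under 1 CPM, treated or not, in 7 of the 10 lines. Of 50 tests of the 5 general myeloid markers (PTPRC, CD33, SPI1, CEBPA and MPO) 20 rose and 12 fell. MPO fell in 7 lines, in 5 of them by more than 2-fold, and rose in 2. The summed level of the 5 went from 15619 to 18355 CPM down to 4586 to 5145 in NB-4 and from 8114 to 8460 down to 3175 to 4957 in HL-60. MPO made up most of that sum, at 15718 CPM in untreated NB-4 and 7051 in untreated HL-60. The sum also fell without overlap in KASUMI-1, MONO-MAC-6 and NOMO-1, and the groups overlapped in F-36P and THP-1. It rose without overlap in MOLM-13 (961 to 999 against 1233 to 1372 CPM), MV-4-11 (575 to 595 against 673 to 711) and OCI-AML3 (1036 to 1126 against 1221 to 1270). Of the markers of other cell types, 17 of 21 lymphoid tests rose and 1 fell, 12 of 16 epithelial rose and 1 fell, 8 of 10 fibroblast rose and 0 fell, and 3 of 15 erythroid rose and 9 fell, 5 of these falls in F-36P. A marker near 0 in untreated cells, as fibroblast ones in NB-4 (sum 0 CPM), was tested through its treated libraries. A fall could hardly be called for it. For all marker counts, 16.1% to 35% of all genes tested in a line rose and 15% to 30.5% fell. Whether the markers of any cell type have a part in the MXD1 and MYC values was not tested.

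MXD4 rose in 7 lines and fell in 1, with an average of 0.67 (SE 0.036). The rise was largest in NB-4, from 41.7, 42.5 and 39.6 CPM to 108, 128 and 124 (1.54, SE 0.094, FDR 5.41e-09). MOLM-13 went from 22.8, 24.0 and 21.0 CPM to 57.4, 65.3 and 64.7 (1.47, SE 0.086, FDR 1.34e-06). In THP-1 MXD4 fell instead, from 45.6, 51.2 and 53.5 CPM to 29.6, 41.4 and 29.1 (-0.59, SE 0.15, FDR 0.00588). THP-1 was thus the line with the largest rise of MXD1 and the only one of the 10 with a fall of MXD4, and the difference of MXD4 between lines passed (FDR 3.09e-17).

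OCI-AML3 (1.15), MV-4-11 (0.91), KASUMI-1 (0.55), NOMO-1 (0.54) and F-36P (0.53) made up the other rises of MXD4, of which that of F-36P was lost without untreated replicate 3 (0.36, FDR 0.0538). MONO-MAC-6 was at 0.0081 (FDR 0.94). HL-60 was just short of the threshold (0.30, FDR 0.0515) and passed without etoposide replicate 1 (FDR 0.0135).

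MXD3, an antagonist expressed in cycling cells, split the lines. In KASUMI-1 it rose from 16.9, 17.1 and 23.6 CPM to 64.4, 99.0 and 94.2 (2.16, SE 0.19, FDR 9.31e-06), the line in which MXD1 rose least. MV-4-11 (1.14), MONO-MAC-6 (0.92), NOMO-1 (0.49) and NB-4 (0.35) rose as well. In THP-1 it fell from 25.2, 35.6 and 34.0 CPM to 13.3, 21.5 and 18.7 (-0.83, SE 0.17, FDR 0.00157). Every treated THP-1 library was below every untreated one, and the lines differed (FDR 4.08e-12). Across the 10 lines the log2 fold changes of MXD1 and MXD3 had an r of -0.73, 1 of 36 such pairs computed and a description only.

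The NB-4 rise (FDR 0.0423) was lost without any of 4 libraries (FDR 0.11 and 0.119 without untreated replicates 1 and 3, 0.242 and 0.115 without etoposide replicates 2 and 3). In OCI-AML3 MXD3 fell by 0.47 (FDR 0.0336), also lost without any of 4 libraries (FDR 0.109 and 0.069 without untreated replicates 2 and 3, 0.102 and 0.114 without etoposide replicates 1 and 2). MOLM-13 was at -0.33 (FDR 0.0684), and with the replicate number as a block in this line, where same-numbered libraries deviated together, the FDR was 0.0213, as it was 0.0253 without etoposide replicate 2 (-0.44). F-36P was at 0.45 (FDR 0.0732), and passed without untreated replicate 1 (0.62, FDR 0.0128), while HL-60 was at 0.0087.

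MXI1 rose in 3 lines and fell in 3, and its average was small (-0.10, SE 0.028, FDR 0.00139, with -0.074 and FDR 0.0519 without etoposide replicate 2, and -0.02 and FDR 0.696 when scaled by library size alone). It lost most in MONO-MAC-6, from 57.9, 61.2 and 67.5 CPM to 24.6, 23.1 and 23.5 (-1.39, SE 0.072, FDR 2.03e-08). In THP-1 it gained, from 25.3, 25.2 and 24.1 CPM to 38.0, 37.7 and 39.5 (0.63, SE 0.13, FDR 0.00102). These lines thus moved in opposite directions, without overlap of the groups in either. NB-4 (-0.67) and OCI-AML3 (-0.59) also fell and NOMO-1 (0.34) rose, and MXI1 differed between lines at FDR 8.03e-20. In F-36P it rose by 0.37 (FDR 0.0169), a call lost without untreated replicate 2 or 3 or etoposide replicate 1 (FDR 0.101, 0.0692 and 0.0806), with the replicate block (0.0689) and with DESeq2 (0.0761).

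MNT, the constitutive antagonist, fell in KASUMI-1 (-0.44, FDR 0.00564) and NB-4 (-0.39, FDR 0.00859), by amounts that no longer passed when libraries were scaled by size alone (FDR 0.0523 and 0.188). KASUMI-1 had 21.0, 21.9 and 24.5 CPM untreated and 15.1, 16.4 and 18.1 treated. Its average over 10 lines was -0.17 (SE 0.033), and no difference between lines was shown (FDR 0.0575, and 0.0384 without etoposide replicate 2). In MONO-MAC-6 the FDR of 0.079 became 0.0124 with the replicate block, at -0.18. Single libraries also decided the value in F-36P (-0.36, FDR 0.0359 without untreated replicate 3), THP-1 (-0.38, FDR 0.021 without etoposide replicate 2) and MONO-MAC-6 (FDR 0.0214 without untreated replicate 1 and 0.0242 without etoposide replicate 2).

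MGA was lower with etoposide in all 10 lines and passed in 6, with log2 fold changes between -0.57 (KASUMI-1) and -0.26 (THP-1) and an average of -0.36 (SE 0.048). The lines did not differ detectably (FDR 0.869), which with these standard errors does not show that they moved alike. HL-60 read 167, 155 and 148 CPM untreated and 118, 102 and 103 treated (-0.54, SE 0.092, FDR 0.000744). In NB-4, 146, 136 and 141 CPM became 101, 98.7 and 94.4. Neither line had overlapping groups. In F-36P the untreated libraries alone spanned 80.4, 127 and 169.9 CPM, and the FDR there was 0.17 with all libraries and 0.00112 without untreated replicate 1. KASUMI-1 (FDR 0.0206) lost its call without untreated replicate 1 or 2 (0.0664 and 0.0534) or with scaling by library size alone (0.102). In 1 fit of 60 libraries MGA did not pass in MOLM-13, MONO-MAC-6 or MV-4-11 (FDR 0.142, 0.104 and 0.251). NOMO-1 (FDR 0.0581) gained one without etoposide replicate 2 or 3 (0.0151 and 0.0158), and OCI-AML3 (FDR 0.107) without etoposide replicate 1 (0.0386).

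MYC was then set against its MXD antagonists within each library, as the log2 ratio of its level per length to the summed levels of MXD1, MXD3, MXD4 and MXI1. Untreated, this ratio was above 0 in all 11 lines, so MYC outweighed the sum, from 0.42 ± 0.088 (SD, n = 3) in THP-1 and 0.62 ± 0.058 in MONO-MAC-6 to 2.61 ± 0.082 in HL-60 and 2.99 ± 0.070 in F-36P. After etoposide it was below 0 in 7 lines, lowest in MONO-MAC-6 (-2.26 ± 0.085), and above 0 in HL-60 (1.62 ± 0.28), MOLM-13 (0.66 ± 0.091), OCI-AML3 (0.57 ± 0.077) and OCI-AML2 (2.13 ± 0.057). The lines whose ratio stayed above 0 included 3 of the 4 with the smallest falls of MYC.

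The ratio dropped in all 10 lines, by a median of 2.34, least in HL-60 (-0.99) and most in F-36P (-4.30). Treated and untreated libraries did not overlap in any of them, and in OCI-AML2 they differed by -0.16 without overlap. KASUMI-1 and MONO-MAC-6 both dropped by 2.88 from different starting points, 1.98 and 0.62. As a score over members, the ratio has no test.

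**Figure D3:**
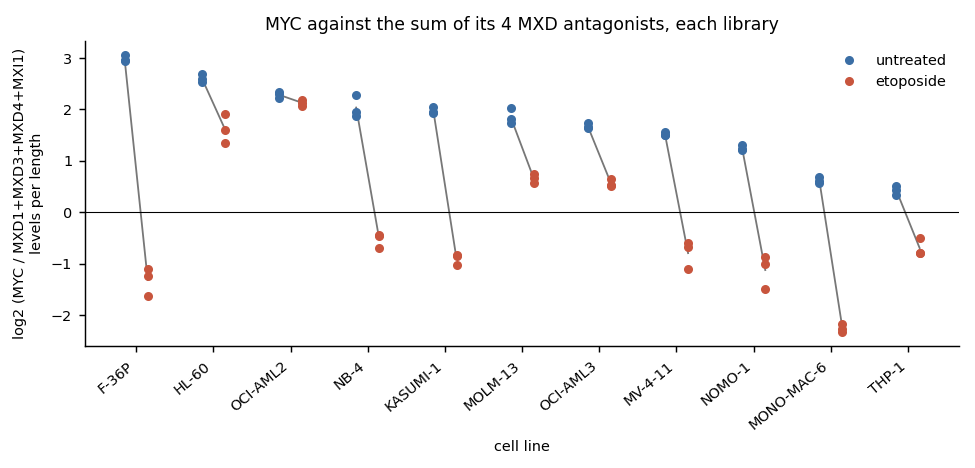
Log2 ratio of MYC to the summed level of MXD1, MXD3, MXD4 and MXI1, each per exon length, in every library, with the group means joined. Lines are ordered by the untreated mean, 2.99 in F-36P to 0.42 in THP-1, and treated libraries of 7 lines lie below 0, where the antagonists together exceed MYC.

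Taken singly, MYC to MXD1 changed least in MOLM-13 (-1.49) and most in F-36P (-4.57), without overlap of the groups in any of the 10 lines. MYC to MXD4 and MYC to MXI1 also separated the groups in all 10, whereas MYC to MXD3 did so in 7, with changes as small as -0.16 in THP-1, where MXD3 and MYC fell together. Each of these ratios contains the fall of MYC, and MYC to MXI1 separated in MONO-MAC-6 although MXI1 itself fell there (-1.39). The share of all genes whose groups do not overlap was not computed, here or for the members above. With etoposide MYC was below MXD1 per length in MONO-MAC-6 alone (-1.55), and close to it in F-36P (0.22 ± 0.23).

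The genes that MYC-MAX dimers are known to bind and raise fell with MYC. The list held 44 of them, mostly genes of ribosome making, nucleotide and polyamine synthesis, chosen from textbook knowledge. Like the other lists it was chosen with earlier results of these data known, so its counts are no independent check. Of the 43 tested in all 10 lines, 41 fell on average over the lines, 0 rose and 2 (SHMT2 and MCM5) did not pass, where 24.1% of all genes fell. The median of the averages was -0.78, against 0.16 for all genes. All genes here include ones expressed in only some lines, and within single lines their median ran from -0.034 to 0.086. The largest falls were in TERT (-1.50, SE 0.067), the catalytic part of telomerase, NOP16 (-1.15, SE 0.034), a nucleolar protein, and UTP20 (-1.12, SE 0.056), which serves small ribosomal subunit assembly. LDHA (-1.09) and PRMT3 (-0.98), whose sites are printed above, fell in all 10 lines. CCND2, not tested in every line, is left out of these counts.

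By line, 42 of 44 targets fell in F-36P and in KASUMI-1, 43 of 44 in MOLM-13 and in MV-4-11, 40 of 43 in MONO-MAC-6, 40 of 44 in NB-4, 37 of 43 in OCI-AML3, 35 of 44 in NOMO-1, 21 of 43 in THP-1 and 18 of 44 in HL-60. OCI-AML2 had 0 of 44. The medians were lowest in F-36P (-1.39) and KASUMI-1 (-1.37) and nearest to 0 in THP-1 (-0.31) and HL-60 (-0.23). MOLM-13 departed from the order of MYC, since its targets had a median of -0.75 with a MYC change of -0.64. Over the 10 lines the list's median and the change of MYC had an r of 0.85 (0.78 in the 9 without F-36P), a description only, since both come from the same libraries.

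**Figure D4:**
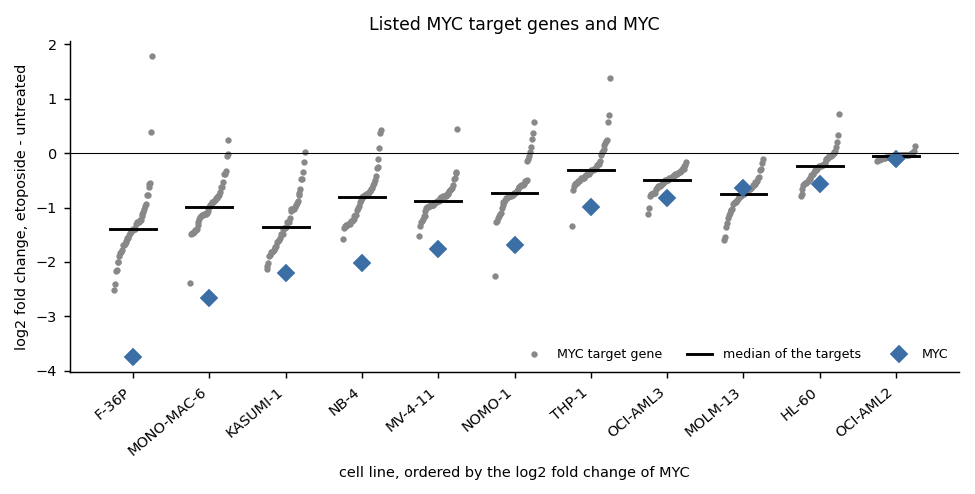
Log2 fold change of each listed MYC target gene (grey points), their median (bar) and MYC (diamond), in each cell line, ordered by the change of MYC. Medians run from -1.39 in F-36P to -0.23 in HL-60, and MYC lies below the median of its targets in 9 of the 10 lines, all but MOLM-13.

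Most genes that MYC is known to hold down with its partner ZBTB17 were higher on average. The list held ZBTB17 itself, which rose (0.34, SE 0.043), and of the other 6 genes tested in all lines 5 rose and 1 fell, against 31.7% of all genes that rose. CDKN1A (3.36, SE 0.058) and GADD45A (1.31, SE 0.041), both stress-induced growth inhibitors, and NDRG2 (1.11, SE 0.052), a differentiation-linked gene, led the rises. CDKN1B, a cell cycle inhibitor, fell (-0.20, SE 0.030). CDKN1A and GADD45A are also p53 targets, and of 18 listed p53 damage genes 16 rose and 0 fell on average, led by CDKN1A, BTG2 (2.41) and FAS (1.51). By line the list was not uniform. In OCI-AML3 20 of 20 tested rose, where 22.4% of all genes rose. In NB-4 7 of 18 rose and 2 fell, where 31% of all genes rose and 28.7% fell. HL-60 had 9 rises and 2 falls of 18, against 17.5% and 15% of all genes.

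For the genes of proteins that MYC and its rivals recruit, the shares of all genes to read against are 24.1% that fell and 31.7% that rose, with a median of 0.16. That median includes genes expressed in only some lines, and within single lines it was -0.034 to 0.086. Of 12 listed coactivators 9 fell and 3 rose on average, with a median of -0.26. The helicases RUVBL2 (-0.67) and RUVBL1 (-0.66) and their partner ACTL6A (-0.48) fell most, and CDK9 (0.26), CCNT1 (0.22) and CREBBP (0.21) rose. Of 12 SIN3 and histone deacetylase genes, through which MXD and MNT repress, 6 fell and 3 rose (median -0.07), with HDAC2 (-0.41), NCOR1 (-0.35) and SAP30 (-0.31) lowest and ARID4B (0.27), SIN3B (0.26) and HDAC1 (0.16) highest. SIN3A, the scaffold itself, fell by 0.22.

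In the polycomb complex that holds MGA, 4 of 10 genes fell and 2 rose, with a median of -0.04. Of all genes 24.1% fell and 31.7% rose, with a median of 0.16, or -0.034 to 0.086 within single lines. WDR5 (-0.35), TFDP1 (-0.34) and CBX3 (-0.31) were lowest, and RING1 (0.18) and RYBP (0.16) rose. Of 11 genes that control the stability of MYC protein 7 fell and 0 rose, read against the same shares, among them SKP2 (-0.54), SET (-0.53) and USP36 (-0.41), and the ligase gene FBXW7 fell by 0.09. On the MLX side of the network, whose members sense glucose, MLX fell (-0.23, SE 0.023) and MLXIP did not pass (-0.03). MLXIPL, a gene of glucose-driven transcription, was tested in 8 lines and rose in 7 of them, by up to 6.77. Where its untreated counts lay below the minimum count, only a rise could be called.

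The genes most like MYC over the 11 untreated lines, among 10643 with a mean of at least 5 CPM, were NPM3 (r = 0.93), TAF4B (0.93), PEX5 (0.93), EFTUD2 (0.91) and DYRK4 (0.90). For the change with etoposide, over 10 lines and 9392 genes, they were PHB2 (r = 0.97), DNAAF2 (0.96), PCID2 (0.96), DTD2 (0.95) and C1QBP (0.95). The nearest gene to the change of MYCL was TRAPPC2 (0.95), to MAX ADIPOR1 (0.91), to MXD1 CNDP2 (0.96), to MXD3 TMPO-AS1 (0.95), to MXD4 PLCB2 (0.92), to MXI1 PDK1 (0.94), to MNT FUBP3 (0.88) and to MGA FLYWCH1 (0.93). With so few lines and so many genes, values of this size describe likeness and carry no test.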

How the data were processed

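Reads from stranded poly(A) libraries (TruSeq) were checked with FastQC 0.11.5 and aligned by the authors with STAR 2.5.3a (assembly GRCh38.p7, gencode release 25), and the counts of reads per gene were deposited, 1 library per file, without normalization. The count column of STAR that was kept is not given in the sources used here. Of 335 genes lying within exons of a gene on the other strand in gencode release 44, 189 had at least 1 read. That goes with counting by strand. The reads were counted with release 25, so whether strand was used is not settled. The authors then used edgeR 3.20.1. All reads used here are those counts: 45 Y copies of shared X/Y genes, with 0 reads, were left out, and names and exon lengths came from gencode release 44 (56948 of 57992 identifiers matched).

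For each line, counts were filtered (filterByExpr, minimum count 10, minimum total 15), scaled by TMM and fitted in edgeR 4.0.16 under R 4.3.3 (quasi-likelihood test, untreated against etoposide), with Benjamini-Hochberg adjustment over all genes and a threshold of 0.05. A fit of 60 libraries gave the average over 10 lines and the test of a difference between lines, and 33 untreated libraries gave the basal tests. CPM were scaled within the 6 libraries of a line, or within the 33 untreated ones for basal levels. The within-line fit, in a single line, and the fit of 60 libraries were tested on simulated data. The basal fit, the replicate block and DESeq2 were not tested in that way. DESeq2 1.42.0, other scalings, no filter, a fold minimum of 2, left-out libraries and a replicate block were the alternatives. Same-numbered libraries deviated together (every correlation over 0.1) in NB-4, OCI-AML2, MONO-MAC-6 and MOLM-13, which is from the data, since the labels do not say what a number marks. Replicates are called biological, and p-values measure the spread between these cultures of 1 line.

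All 10 members are named. The other genes named are those most like a member, and up to 3 of the largest rises and falls in each list. The members and lists were chosen with earlier results of these data known.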

Additional observations from a re-analysis of the deposited data

Results flagged for a closer look

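The response to etoposide differed between the 10 cell lines for 7 members, by the F test over the within-line log2 fold changes in edgeR with Benjamini-Hochberg adjustment. 74.5% of all genes passed the same test. The etoposide concentration differed between lines too, so line and concentration cannot be told apart. The adjusted p was 6.95e-24 for MYC (-3.75 in F-36P to -0.56 in HL-60), 8.03e-20 for MXI1 (-1.39 in MONO-MAC-6 to 0.63 in THP-1) and 3.09e-17 for MXD4 (-0.59 in THP-1 to 1.54 in NB-4). It was 1.44e-14 for MYCL (-0.36 in NOMO-1 to 3.54 in F-36P), 4.08e-12 for MXD3 (-0.83 in THP-1 to 2.16 in KASUMI-1), 3.72e-12 for MXD1 (0.39 in KASUMI-1 to 2.11 in THP-1) and 0.000107 for MAX (-0.26 in NB-4 to 0.38 in THP-1). MYC and MXD1 differed in size with 1 direction in all 10 lines, whereas MXI1, MXD3, MXD4 and MAX passed the test in both directions.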

How the results depend on the processing

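With a fold change above 2 required as well, the 59 calls of a member in a line became 20, with 12 rises and 8 falls in place of 32 and 27, and MYC passed in 6 lines. The number of calls was 54 to 61 when 1 replicate of a treatment was left out in every line, and 55 (1 fit of 60 libraries), 57 (DESeq2), 58 (library size alone), 60 (no filter on low counts) and 61 (RLE size factors) otherwise. No called value reversed. Scaling by library size alone raised the median log2 fold change of all genes to as much as 0.34, against 0.086 with TMM and 0.33 with DESeq2, and the share of rises among genes called to between 48.5% and 74.1%, against 50.02% to 58.3%. With it the members gave 36 rises and 22 falls, MAX became 0.12 in F-36P, MNT 0.00087 in F-36P and 0.025 in MV-4-11 and MXI1 0.056 in MV-4-11, each with a changed sign, and the averages of MAX (0.12, FDR 2.92e-05) and MXI1 (-0.02, FDR 0.696) changed sides, MAX also with RLE (0.064, FDR 0.0342). MXD4 in MONO-MAC-6 was -0.00029 with RLE and -0.0022 with DESeq2.

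Leaving out single replicates changed the sign only of values that had not passed: MAX ranged from -0.018 to 0.050 in HL-60 and -0.014 to 0.14 in KASUMI-1, MXD3 from -0.19 to 0.31 and MXI1 from -0.038 to 0.098 in HL-60, and MXD4 from -0.090 to 0.057 in MONO-MAC-6. In OCI-AML2 the ranges were -0.12 to 0.023 (MYCL), -0.12 to 0.050 (MXD3), -0.081 to 0.095 (MXD4) and -0.076 to 0.071 (MGA).

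The replicate block gave 60 calls, with 32 rises and 28 falls. Where numbers did not pair the libraries it lost MXI1 in F-36P (FDR 0.0689) and MXD3 in OCI-AML3 (0.0601) and added MXD4 in HL-60 (0.036), and where they did it added MXD3 in MOLM-13 (0.0213) and MNT in MONO-MAC-6 (0.0124). It changed no other call of a member in the 10 lines. MNT differed between lines without F-36P (FDR 0.0484), with OCI-AML2 (0.0209) and without etoposide replicate 2 (0.0384). The cause was not tested. Basal calls stayed at 67.6% to 76% of pairs and the median change of the ratio at -2.40 to -2.25. Depth limits MYCN and low MYCL, read by few counts.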
